A study of Oryctolagus cuniculus with 3 samples.

Results

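The genes described here are the ligands, latent binding proteins, receptors, antagonists, SMAD transducers and ID targets of the TGF-beta and BMP pathway in the media of the rabbit aorta, the muscular layer of its wall. A list of 44 gene symbols was matched to the symbol column of the deposited table, and 40 of them were found, among 15248 rabbit gene rows. ACVR2B, FSTL3, NOG and GDF15 had no row under their symbol and were not analysed here. Of the 40, 37 had a mean of at least 1 FPKM (fragments scaled by gene length and library total) over the libraries, and INHBB, GREM1 and BMP7 lay below it.

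There were 3 libraries, each made from the pooled RNA of 5 male rabbits of the strain JW/CSK at 9 months of age. The groups were rabbits transgenic for mouse PGC-1alpha on a high cholesterol diet for 20 weeks, non-transgenic rabbits on the same diet for the same time, and non-transgenic rabbits on chow. What promoter drives the transgene is not stated in the labels. With 1 library a group, no spread between animals can be given, no difference has a replicate check, and no p-value was computed. The labels place the chow library on sequencing lane 3 and the other libraries on lane 2, so diet and lane cannot be told apart.

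Ligands of this family are dimers that bring type I and type II receptor kinases together, and the type I receptor then phosphorylates receptor-regulated SMAD proteins, which enter the nucleus with SMAD4. SMAD2 and SMAD3 mainly carry TGF-beta and activin signals, and SMAD1, SMAD5 and SMAD9 carry BMP signals. TGF-beta is secreted in a latent form that LTBP proteins tether to the elastic matrix, and in the aorta the pathway is known for its part in smooth muscle differentiation, matrix production and aneurysm disease.

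Mouse Ppargc1a stood at 12.8 FPKM in the transgenic library while both non-transgenic libraries listed it at 0, as the labels say. FPKM summed to between 824460 and 943181 per library. The absolute depth is unknown. The steps between the lowest values give a relative depth only if no further scaling between libraries was applied, which is not stated. On that reading fragments were 1.251 times those of chow in the transgenic and 1.285 times in the non-transgenic cholesterol library. Smooth muscle markers summed to 16366 FPKM in the transgenic and 11963 in the non-transgenic cholesterol library, against 28950 on chow. Macrophage markers summed to 4194, 4724 and 64.2 FPKM in the same libraries, and endothelial markers to 203, 179 and 124 FPKM. In such bulk samples, fewer cells of a type and less RNA per cell cannot be told apart.

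The pathway was present at every level in all 3 libraries, from abundant latent binding proteins down to near-absent ligands. By mean FPKM, 8 members lay at 100 or more and 30 at 10 or more. On chow LTBP4, which tethers latent TGF-beta, ranked 101 of the 11597 rabbit genes over the filter, the secreted glycoprotein FSTL1 132, the transcriptional inhibitor ID3 136 and LTBP3 242. The receptors spread widely. On chow the highest of them, BMPR1A, lay above 88.0% of the genes over the filter, and the lowest, ACVRL1, above 22.7%. TGFBR2, the type II receptor of TGF-beta, had the highest mean FPKM among the receptors. BMP7 was listed at 0 in every library, on a gene model of 417 bp.

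**Figure D1:**
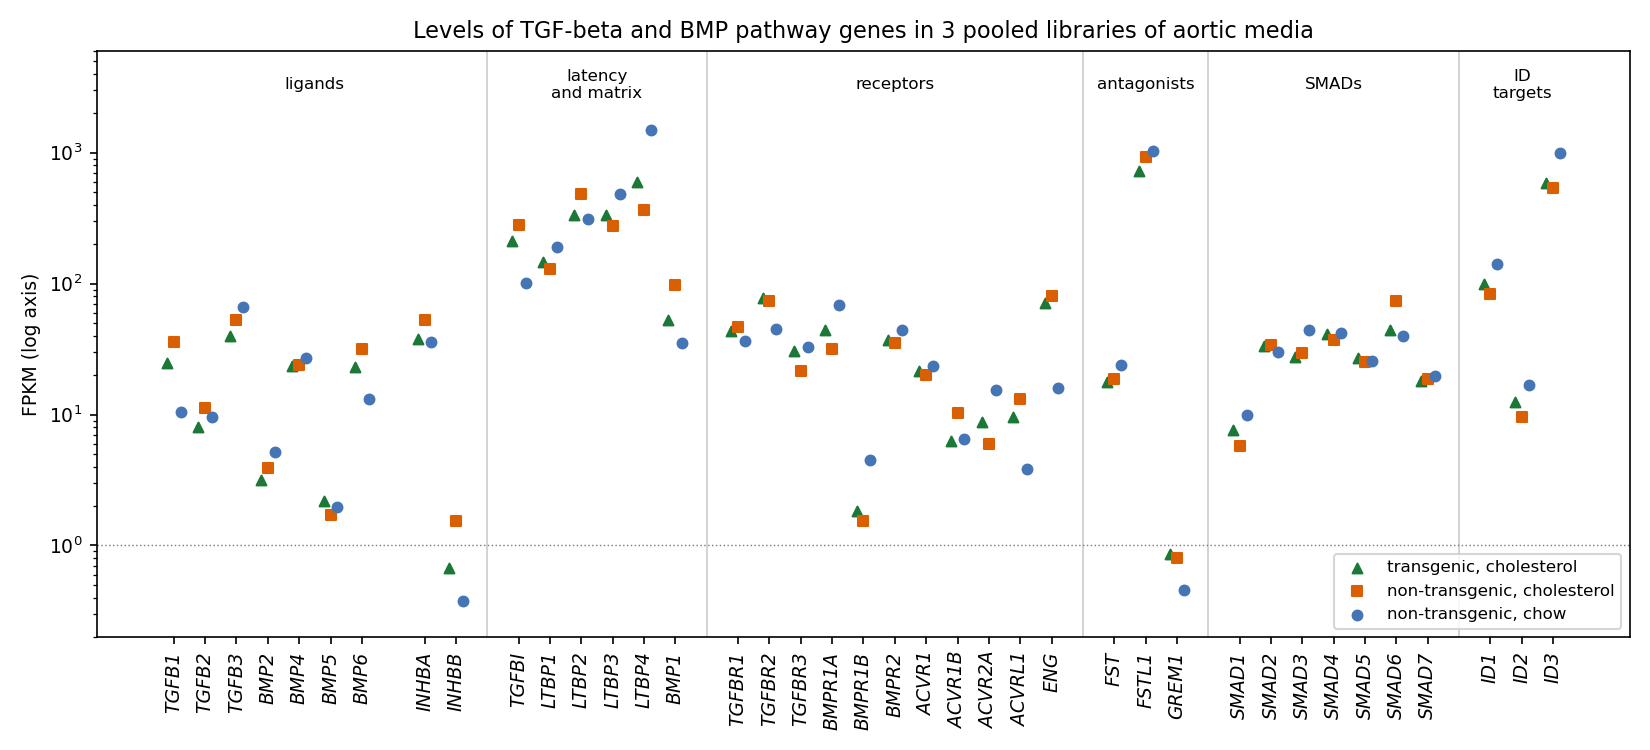
FPKM on a log axis for the 39 members above 0, grouped by role, in the transgenic cholesterol library (triangles), the non-transgenic cholesterol library (squares) and the chow library (circles), with a dotted line at 1 FPKM. LTBP4 spans 367 to 1481 FPKM, while SMAD7 stays between 18.1 and 19.9 FPKM.

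With the cholesterol diet in non-transgenic rabbits, some pathway genes were higher and others lower, and the largest differences were in ENG, TGFB1 and LTBP4. Differences are given as log2(FPKM + 1) of the cholesterol library minus the chow library, and genes were counted from a 2-fold difference on that scale. Of the 37 members, 6 were at least 2-fold higher (TGFB1, BMP6, TGFBI, BMP1, ACVRL1 and ENG), or 16.2%, where 15.9% of all genes over the filter were. At least 2-fold lower were 4 members (LTBP4, BMPR1A, BMPR1B and ACVR2A), or 10.8%, against 6.99% of all genes. The members' median difference was -0.16, against 0.02 over all genes. The share of members higher was therefore close to the background of these libraries, and the values of single members are what is described below.

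**Figure D2:**
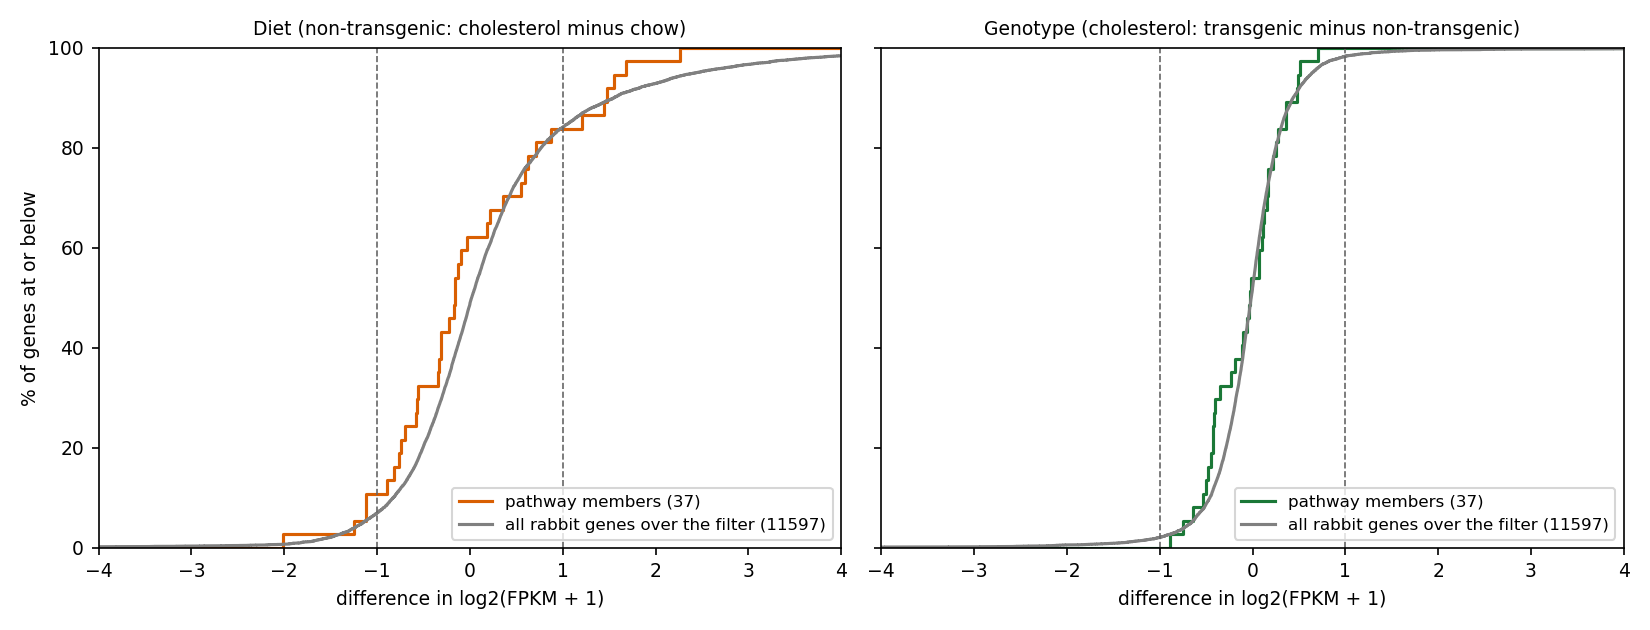
Cumulative percentage of genes at or below each difference in log2(FPKM + 1), for the 37 pathway members (coloured) and all 11597 rabbit genes over the filter (grey); dashed lines mark 2-fold. For the diet 16.2% of members and 15.9% of all genes lie at or above the upper line, and for the genotype no member lies beyond either line.

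Among the TGF-beta ligands the diet difference lay in TGFB1, the isoform that blood and inflammatory cells also release. TGFB1 (ENSOCUG00000008485, OryCun2.0, unplaced scaffold, 603843 to 626292) stood at 25.0 FPKM in the transgenic cholesterol library and 35.9 in the non-transgenic cholesterol library, against 10.5 in the chow library. Its diet difference was 1.68, a ratio of FPKM of 3.41. TGFB3 (chromosome 20, 29183848 to 29208440), the most abundant TGF-beta ligand in every library, stood at 39.8 and 53.0 FPKM in the transgenic and non-transgenic cholesterol libraries, against 66.1 on chow. TGFB2 lay between 7.98 and 11.2 FPKM in the 3 libraries.

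The make-up of the TGF-beta ligands therefore differed with diet in a way that no scaling between libraries can alter. TGFB1 made up 34.3% of the summed FPKM of the 3 isoforms in the transgenic library and 35.8% in the non-transgenic cholesterol library, against 12.2% on chow. The share of TGFB3 was 54.7% and 53.0% in those cholesterol libraries, against 76.7% on chow. The sum itself was 72.8 FPKM in the transgenic, 100.1 in the non-transgenic cholesterol and 86.1 in the chow library. Macrophage markers moved with TGFB1 (14 of 14 above 0 for the diet, 12 of them at least 2-fold, MMP12 listed at 0 on chow), and their part in its difference was not tested.

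Of the BMP ligands, BMP6, which in other mammals is made by endothelium and takes part in iron balance, was higher on the diet. BMP6 (ENSOCUG00000003431, chromosome 12, 1470826 to 1649357) stood at 23.2 FPKM in the transgenic library and 31.5 in the non-transgenic cholesterol library, against 13.0 on chow, with a diet difference of 1.21. Its gene overlaps TXNDC5, whose diet difference was 0.91, and no source used here says whether the counting used strand. BMP4, a morphogen that shear stress regulates in endothelium, was nearly level at 23.5, 23.8 and 27.0 FPKM in the transgenic, non-transgenic cholesterol and chow libraries. Its diet difference of -0.17 changed sign, to 0.0011, when FPKM were rescaled without mitochondrial DNA genes. BMP2 (3.17 to 5.20 FPKM) and BMP5 (1.72 to 2.17 FPKM) were low throughout. BMP6 made up 44.6% of the summed FPKM of BMP2, BMP4, BMP5 and BMP6 in the transgenic library and 51.7% in the non-transgenic cholesterol library, against 27.6% on chow.

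Both activin subunits were higher on the diet by less than 2-fold on the log2(FPKM + 1) scale. INHBA, the subunit of activin A, stood at 37.9 and 53.1 FPKM in the transgenic and non-transgenic cholesterol libraries, against 36.0 on chow, a diet difference of 0.55. INHBB, the subunit of activin B, was below the filter at 0.67, 1.53 and 0.38 FPKM in those libraries, and its diet difference of 0.88 understates a ratio of 4.06 between low values. FST, which binds and blocks activin, stood at 17.8 and 18.7 FPKM on cholesterol in transgenic and non-transgenic rabbits, against 23.9 on chow. The ratio of FST to INHBA was 0.47 in the transgenic and 0.35 in the non-transgenic cholesterol library, against 0.66 on chow.

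The other antagonists did not reach 2-fold. FSTL1, a secreted glycoprotein of mesenchymal cells that binds BMP ligands, was the most abundant at 723 FPKM in the transgenic and 920 in the non-transgenic cholesterol library, against 1029 on chow. Its diet difference of -0.16 changed sign, to 0.02, when FPKM were rescaled without mitochondrial DNA genes. GREM1, a BMP antagonist, lay below the filter at 0.45 to 0.87 FPKM.

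Within the LTBP family, LTBP4 was 4-fold lower on the diet, while LTBP2 was higher by less than 2-fold. LTBP4 (ENSOCUG00000005827, unplaced contig, 9484 to 14317), which binds latent TGF-beta weakly and guides elastic fibre assembly, stood at 599 FPKM in the transgenic library and 367 in the non-transgenic cholesterol library, against 1481 on chow. The diet difference was -2.01, and it lay between -2.09 and -1.83 under every pseudocount and scaling tried. LTBP3 aids the secretion of latent TGF-beta in the skeleton and vessel. It stood at 332 and 274 FPKM in transgenic and non-transgenic cholesterol rabbits, against 485 on chow, a diet difference of -0.82. LTBP1, the main carrier of latent TGF-beta, followed at 146, 130 and 192 FPKM in the transgenic, non-transgenic cholesterol and chow libraries, a diet difference of -0.56.

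LTBP2 (chromosome 20, 30505561 to 30590509), an elastic fibre protein that does not bind TGF-beta, stood at 333 FPKM in the transgenic and 483 in the non-transgenic cholesterol library, against 314 on chow. Its diet difference was 0.62. LTBP4 was the most abundant member of the family in the transgenic library and on chow, and LTBP2 in the non-transgenic cholesterol library. LTBP4 made up 42.5% of the family's summed FPKM in the transgenic and 29.3% in the non-transgenic cholesterol library, against 59.9% on chow, and LTBP2 made up 23.6%, 38.5% and 12.7% in those libraries. The summed level of the 4 LTBP genes was 1409 FPKM in the transgenic and 1255 in the non-transgenic cholesterol library, against 2471 on chow. The LTBP3 and LTBP4 models lie on unplaced contigs, where they span 6369 and 4834 bp and may be incomplete. Smooth muscle markers moved with LTBP4 (9 of 9 below 0 for the diet, 8 of them at least 2-fold, none listed at 0), and their part in its difference was not tested. Of 9 adventitial fibroblast markers 7 were below 0 on the diet, 3 were at least 2-fold lower and 1, LUM, was at least 2-fold higher. Their summed levels were 2647 and 2208 FPKM in the transgenic and non-transgenic cholesterol libraries, against 3098 on chow. The largest part of each sum was a single gene, GSN, at 1341 and 1207 FPKM in those cholesterol libraries, against 1682 on chow. The marker PI16 stood at 298 FPKM in the transgenic and was listed at 0 in the other cholesterol library, against 411 FPKM on chow. DCN stood at 247 and 121 FPKM in those cholesterol libraries, against 238 on chow, and LUM at 196 and 370 FPKM, against 85.1 on chow. The part of these markers was not tested either.

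TGFBI, a matrix protein, and BMP1, a protease, were both higher on the diet. TGFBI, an adhesive matrix protein first found as a TGF-beta induced gene, stood at 211 FPKM in the transgenic and 282 in the non-transgenic cholesterol library, against 101 on chow, a diet difference of 1.47. BMP1, which is not a growth factor but a protease that trims procollagen and activates lysyl oxidase, stood at 52.7 and 98.2 FPKM in transgenic and non-transgenic cholesterol rabbits, against 35.5 on chow. Its diet difference was 1.44. Macrophages also express TGFBI, and the macrophage marker values above belong beside it.

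**Figure D3:**
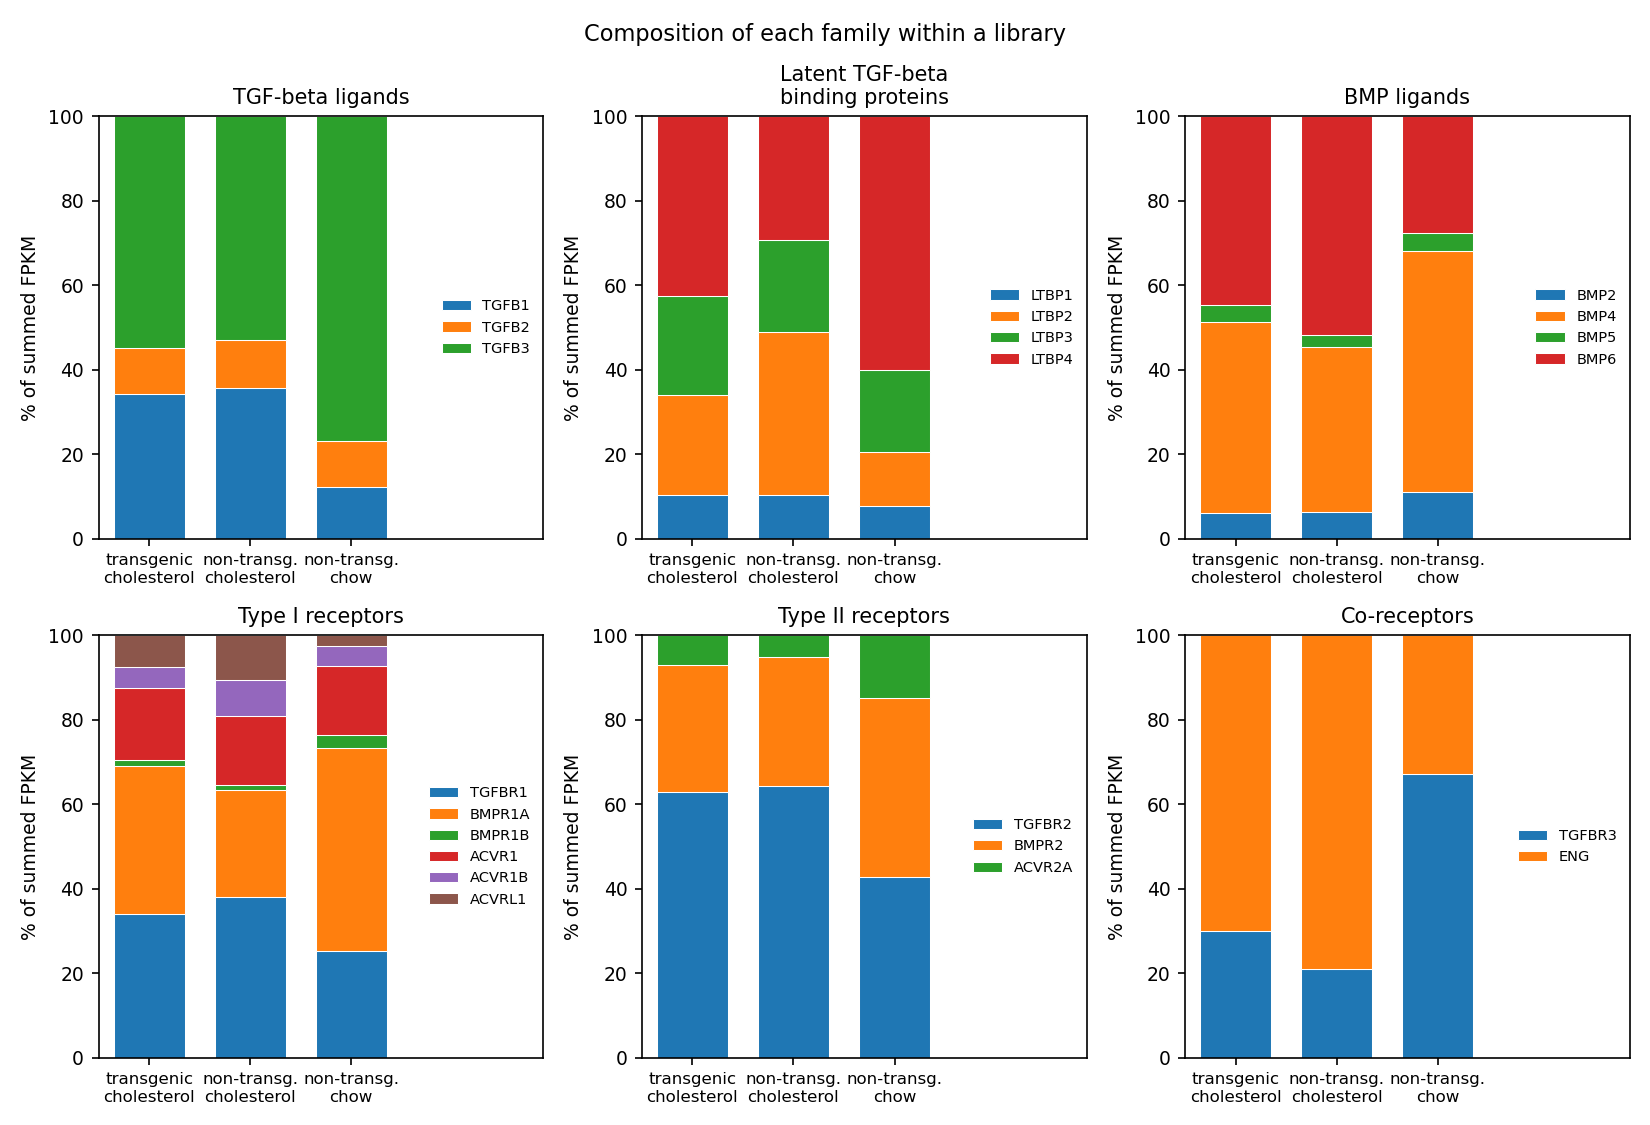
Each gene's share of its family's summed FPKM, in percent, with the transgenic cholesterol, the non-transgenic cholesterol and the chow library from left to right. TGFB1 is at 34.3%, 35.8% and 12.2% of the TGF-beta ligands, and ENG at 69.9%, 78.9% and 32.7% of the co-receptors.

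Of the 11 receptors over the filter, the diet difference was at least 2-fold upward for ENG and ACVRL1 and downward for BMPR1A, BMPR1B and ACVR2A. These were 18.2% and 27.3% of the receptors, against 15.9% and 6.99% of all genes. ENG (endoglin, ENSOCUG00000007136, unplaced scaffold, 663620 to 689190), a co-receptor of endothelium that activated macrophages also carry, stood at 70.8 FPKM in the transgenic and 80.8 in the non-transgenic cholesterol library, against 16.0 on chow. Its diet difference of 2.27, a ratio of 5.06, was the largest of all members. ACVRL1 (ALK1, chromosome 4, 36077118 to 36088323), the type I receptor that works with endoglin, stood at 9.56 and 13.2 FPKM in transgenic and non-transgenic cholesterol rabbits, against 3.84 on chow, a diet difference of 1.55. TGFBR3 (betaglycan), the co-receptor that presents TGFB2, was lower at 30.4 and 21.6 FPKM in those libraries, against 32.8 on chow, and its diet difference of -0.58 did not reach 2-fold. ENG thus exceeded TGFBR3 2.32 times in the transgenic and 3.74 times in the non-transgenic cholesterol library, and was 0.49 times its level on chow.

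Endothelial and macrophage markers were also higher on the diet. Of the 10 endothelial markers 9 were above 0, with a median difference of 0.95. EMCN, VWF and ROBO4 were 2-fold higher or more, ESAM was 2-fold lower, and none was listed at 0. The diet differences of ENG and ACVRL1 were 2.27 and 1.55, and the highest of the endothelial markers was 1.88 (EMCN). The part of either cell type in the receptor differences was not tested. The deposited position of ENG takes in 8 neighbouring genes of the same scaffold, whose diet differences ran from -1.13 (AK1) to 0.95 (ST6GALNAC4), and SLC25A25 overlaps ENG and stood at 6.80, 10.4 and 5.29 FPKM in the transgenic, non-transgenic cholesterol and chow libraries.

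The kinases of TGF-beta itself were higher by less than 2-fold. TGFBR2 (chromosome 14, 17662356 to 17752039) stood at 77.8 FPKM in the transgenic and 74.1 in the non-transgenic cholesterol library, against 44.7 on chow, a diet difference of 0.72. TGFBR1 (ALK5), its type I partner, stood at 43.1 and 46.9 FPKM in those libraries, against 36.3 on chow, a diet difference of 0.36. ACVR1B (ALK4), the type I receptor of activin, had a diet difference of 0.59 at 6.29, 10.3 and 6.53 FPKM in the transgenic, non-transgenic cholesterol and chow libraries.

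BMPR1A, BMPR1B, ACVR2A, BMPR2 and ACVR1, which serve BMP ligands, were all below chow. ACVRL1 and ENG, which bind the ligands GDF2 and BMP10, were above it, with diet differences of 1.55 and 2.27. BMPR1A (ALK3, chromosome 18, 8553741 to 8622760), the main type I receptor for BMP2 and BMP4, stood at 44.5 and 31.4 FPKM in transgenic and non-transgenic cholesterol rabbits, against 69.2 on chow. Its diet difference was -1.12, and -0.94 when FPKM were rescaled without mitochondrial DNA genes. BMPR1B (ALK6) was low, at 1.83 and 1.52 FPKM on cholesterol in transgenic and non-transgenic rabbits, against 4.48 on chow, and its diet difference of -1.12 was -0.54 at a pseudocount of 5. ACVR2A, a type II receptor for activins and BMPs, stood at 8.83 and 5.90 FPKM in those libraries, against 15.4 on chow, a difference of -1.25 that was -0.90 at a pseudocount of 5. BMPR2, the type II receptor mutated in heritable pulmonary hypertension, and ACVR1 (ALK2) differed less, by -0.32 and -0.22. The BMPR1A gene overlaps MMRN2, an endothelial matrix gene whose diet difference was 1.20. Smooth muscle markers were lower on the diet beside the receptors that were below chow (9 of 9 below 0, median -1.51), and their part was not tested.

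These differences changed the mix of receptors. BMPR1A made up 35.0% of the type I receptors' summed FPKM in the transgenic and 25.4% in the non-transgenic cholesterol library, against 48.0% on chow. TGFBR1 made up 34.0% and 38.0% in those cholesterol libraries, against 25.2% on chow, and ACVRL1 7.53% and 10.7%, against 2.66%. TGFBR2 was 2.10 times BMPR2 in the transgenic and 2.09 times in the non-transgenic cholesterol library, against 1.01 times on chow.

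None of the 7 SMAD members reached 2-fold with diet, and SMAD9, from the list of further pathway genes, is given with that list. SMAD6, the inhibitory SMAD that mainly limits BMP signals, came nearest (chromosome 17, 5668282 to 5730408). It stood at 43.8 FPKM in the transgenic and 74.2 in the non-transgenic cholesterol library, against 40.0 on chow, with a diet difference of 0.87, or 1.06 when FPKM were rescaled without mitochondrial DNA genes. SMAD7, the inhibitory SMAD of TGF-beta signalling and itself a classic TGF-beta target, was level at 18.1, 18.5 and 19.9 FPKM in the transgenic, non-transgenic cholesterol and chow libraries.

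SMAD3 and SMAD1 were lower on the diet and SMAD2 slightly higher. SMAD3 stood at 27.5 and 29.5 FPKM on cholesterol in transgenic and non-transgenic rabbits, against 44.2 on chow, a diet difference of -0.57, while SMAD2 stood at 33.2, 34.1 and 29.9 FPKM in the transgenic, non-transgenic cholesterol and chow libraries, a difference of 0.18. The ratio of SMAD3 to SMAD2 was 0.83 in the transgenic and 0.87 in the non-transgenic cholesterol library, against 1.48 on chow. SMAD1 had a diet difference of -0.69 at 7.64, 5.74 and 9.91 FPKM in the transgenic, non-transgenic cholesterol and chow libraries. SMAD5 and the shared partner SMAD4 lay within 25.0 to 27.1 and 37.1 to 41.7 FPKM. The diet differences of SMAD4, SMAD5 and SMAD7, all between -0.17 and -0.02, changed sign under rescaling without mitochondrial DNA genes.

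ID1, ID2 and ID3, the inhibitors of differentiation that BMP signals induce directly, were all lower on the diet by less than 2-fold. ID3 (chromosome 13, 129667293 to 129667820) stood at 585 FPKM in the transgenic and 535 in the non-transgenic cholesterol library, against 995 on chow. ID1 stood at 99.4 and 83.3 FPKM in those libraries, against 140 on chow, and ID2 at 12.6 and 9.59, against 16.9. Their diet differences were -0.89 for ID3, -0.76 for ID2 and -0.75 for ID1, and each stayed negative under every pseudocount and scaling tried. ID3 made up 83.9% of their summed FPKM in the transgenic, 85.2% in the non-transgenic cholesterol and 86.3% in the chow library. Smooth muscle markers were lower on the diet beside them (9 of 9 below 0, summed levels as given above), and their part in these differences was not tested.

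**Figure D4:**
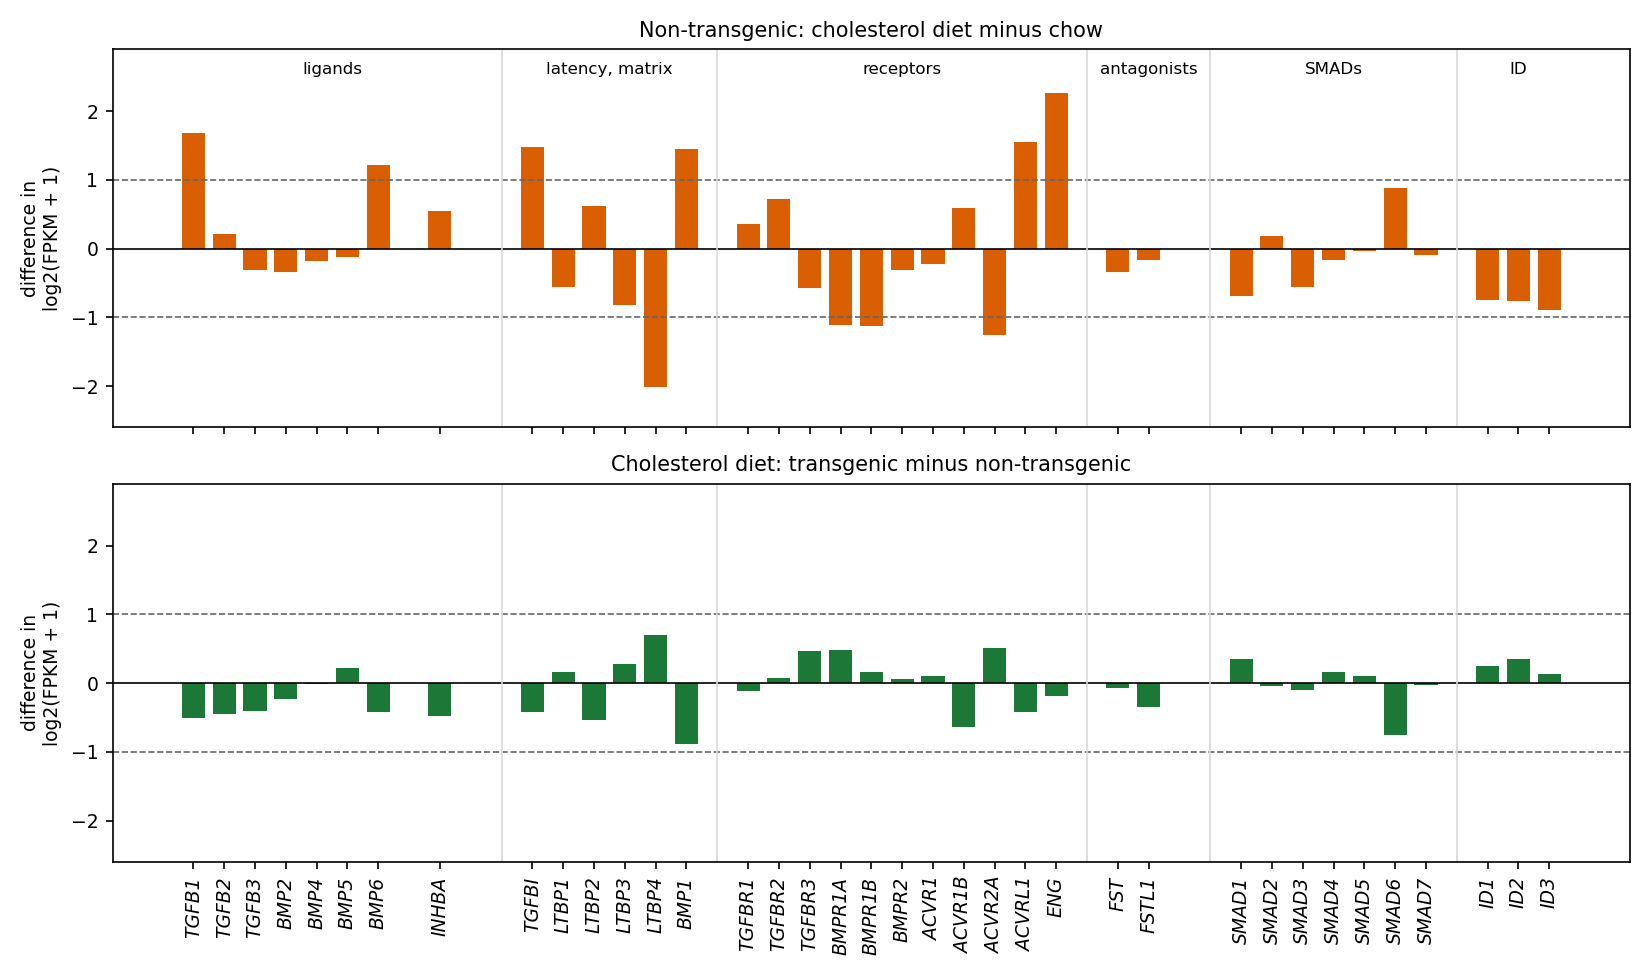
Difference in log2(FPKM + 1) for each of the 37 members over the filter, with the diet comparison above and the genotype comparison below, and dashed lines at 2-fold. ENG at 2.27 and LTBP4 at -2.01 are the extremes of the diet panel, and the genotype bars stay between -0.88 and 0.71.

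Within the cholesterol diet, the transgenic and the non-transgenic library differed by less than 2-fold in every member. None of the 37 was at least 2-fold higher in the transgenic library, where 1.70% of all genes over the filter were. None was 2-fold lower, against 2.10% of all genes, or 3.80% in either direction. The members' median difference was -0.03, against -0.01 over all genes. At these background shares under 1 member in each direction would be past 2-fold in a list of this length, so a count of 0 is near the background. The comparison shares the non-transgenic cholesterol library with the diet comparison, and a chance deviation of that library enters both with opposite sign.

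Of the 8 ligands over the filter 7 were below 0 in the transgenic library, against 5998 of all 11597 genes. The ligands' median was -0.41, against -0.01 over all genes, and BMP4, at -0.01, changed sign with scaling. TGFB1 had a difference of -0.51, INHBA -0.48, TGFB2 -0.44, BMP6 -0.42 and TGFB3 -0.40, while BMP5 stood 0.22 above. Of the antagonists, FSTL1 stood at -0.35, and FST, at -0.06, changed sign with scaling. The proportions of the 3 TGF-beta isoforms lay within 2 percentage points of each other in the transgenic and non-transgenic cholesterol libraries.

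Matrix and latency genes spread in both directions. BMP1 had the lowest genotype difference of all members, -0.88, at 52.7 FPKM in the transgenic library against 98.2 in the non-transgenic cholesterol library. LTBP4 had the highest, 0.71, at 599 FPKM against 367. LTBP2 stood at -0.54, TGFBI at -0.42, LTBP3 at 0.27 and LTBP1 at 0.17. The ratio of LTBP4 to LTBP2 was 1.80 in the transgenic and 0.76 in the non-transgenic cholesterol library, and 4.72 on chow. Of the adventitial fibroblast markers 6 of 9 were above 0 in this comparison, and PI16 and DCN were at least 2-fold higher.

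Among receptors the higher values in the transgenic library were those of ACVR2A (0.51), BMPR1A (0.49) and TGFBR3 (0.48), with smooth muscle markers also higher (9 of 9 above 0, median 0.55). ACVR1B (-0.64) and ACVRL1 (-0.42) were lower, and ENG stood at -0.19. TGFBR2, BMPR2 and ACVR1 differed by 0.07 to 0.10, and TGFBR1, at -0.12, changed sign with scaling. Endothelial markers had a median of 0.01 in this comparison, with 5 of 10 above 0, and macrophage markers one of -0.23 with 10 of 14 below 0. The macrophage markers split, with C1QB (1.79) and C1QC (1.42) at least 2-fold higher and LYZ (-2.19) and MSR1 (-1.88) at least 2-fold lower.

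SMAD6 was the lowest of the SMADs in the transgenic library, at -0.75, with 43.8 FPKM against 74.2 in the non-transgenic cholesterol library. The ratio of SMAD6 to SMAD7 was 2.42 in the transgenic and 4.01 in the non-transgenic cholesterol library, and 2.02 on chow. SMAD1 had a difference of 0.36, SMAD4 of 0.16 and SMAD5 of 0.11, while SMAD2, SMAD3 and SMAD7 lay between -0.10 and -0.03 and changed sign with scaling. The ID genes were slightly higher in the transgenic library, ID2 by 0.36, ID1 by 0.25 and ID3 by 0.13. The part of the smooth muscle markers in these differences was not tested.

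Of 60 further pathway symbols (other ligands, activators, extracellular antagonists and nuclear regulators), 47 had a row under their symbol, and 38 were over the filter. For the diet 4 of these were at least 2-fold higher and 8 lower, with a median difference of -0.30. Their shares were 10.5% and 21.1%, against 15.9% and 6.99% of all genes. The list was chosen with earlier results of these data known, so its shares are descriptions. The count of lower genes was 4 at a pseudocount of 5 FPKM and 5 when FPKM were rescaled without mitochondrial DNA genes, and that of higher genes was 2 at that pseudocount. CHRDL2, a chordin-like BMP antagonist, stood at 23.6 and 40.8 FPKM in transgenic and non-transgenic cholesterol rabbits, against 2.34 on chow, a difference of 3.64. FURIN, the convertase that cleaves TGF-beta precursors, stood at 93.8 and 98.3 FPKM, against 24.1 on chow, a difference of 1.98. LRRC32 (GARP), which displays latent TGF-beta on the cell surface, and TGIF1, a repressor of SMAD activity, had differences of 1.27 and 1.43 at no more than 5.66 and 4.60 FPKM in any library.

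BAMBI, SOST, SMAD9 and INHA were the lower genes with the largest differences. BAMBI, a decoy receptor without kinase activity, stood at 111 FPKM in the transgenic and 38.7 in the non-transgenic cholesterol library, against 129 on chow. SOST (sclerostin), which binds LRP receptors of the WNT pathway and was first described as a BMP antagonist, stood at 24.9 and 10.4 FPKM in those libraries, against 38.4 on chow. Their diet differences were -1.71 and -1.79, and they were also the genes of this list at least 2-fold higher in the transgenic library, by 1.50 and 1.18. That was 5.26% of the 38, against 1.70% of all genes, and none was at least 2-fold lower. Both comparisons use the non-transgenic cholesterol library, so the diet and genotype differences of a gene are not separate observations. SMAD9 stood at 22.9 and 19.7 FPKM on cholesterol in transgenic and non-transgenic rabbits, against 47.6 on chow, a diet difference of -1.23, and INHA, the inhibin subunit, at 3.42 and 1.50, against 5.11, a difference of -1.29.

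Of the genes that TGF-beta is known to induce, several matrix and growth-arrest genes were higher on the diet and 3 contractile genes were lower. Of 32 listed target symbols 25 had a row under their symbol, and 24 were over the filter. Of these, 10 (41.7%) were at least 2-fold higher and 3 (12.5%) lower on the diet, where 15.9% and 6.99% of all genes were. The list was chosen with earlier results of these data known, so these shares are descriptions and no test of enrichment. The list's median difference was 0.75, with 19 above 0 and 5 below, the 5 including the matrix genes FBN1 (-0.33) and COL3A1 (-0.10). SPHK1, a sphingosine kinase, stood at 16.3 and 29.5 FPKM in transgenic and non-transgenic cholesterol rabbits, against 0.18 on chow, a difference of 4.69. CDKN1A, the cell cycle inhibitor p21, stood at 95.6 and 153 FPKM, against 13.3 on chow, a difference of 3.42. POSTN, THBS1, TIMP1 and TNC, secreted matrix and inhibitor proteins, had diet differences of 4.06, 2.95, 2.68 and 2.51, and the matrix genes FN1 and COL1A1 of 1.62 and 1.55. Many of these genes also respond to other signals, and 12 of 14 macrophage markers were at least 2-fold higher beside them, a part that was not tested.

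Some targets are early readouts of SMAD activity. CTGF, a matricellular protein, had a diet difference of 0.75 and KLF10, a TGF-beta inducible transcription factor, of 0.91. SKIL, a SMAD corepressor from the list of further pathway genes, stood at 0.07. SMAD7, the member described above as a classic TGF-beta target, stood at -0.09. The 3 targets at least 2-fold lower were ACTA2, TAGLN and TGFB1I1, genes of contractile smooth muscle and its focal adhesions, at -1.27, -1.02 and -1.04. ACTA2 and TAGLN are also on the smooth muscle marker list, where 9 of 9 were below 0 and 8 at least 2-fold lower. The part of these markers in the lower targets was not tested. When FPKM were rescaled to the same sum per library, 1 target, ACTA2, was at least 2-fold lower.

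In the transgenic library no target was at least 2-fold higher, and THBS1, POSTN and LOX were at least 2-fold lower than in the non-transgenic cholesterol library. These were 12.5% of the targets, against 2.10% of all genes lower and 1.70% higher. As the list was chosen with earlier results of these data known, this share is a description. The genotype differences of THBS1, POSTN and LOX were -1.29, -1.24 and -1.03, and their diet differences 2.95, 4.06 and 0.62. Both comparisons use the non-transgenic cholesterol library, so the differences of a gene are not separate observations. When FPKM were rescaled to the same sum, 2 targets were at least 2-fold lower. The deposited position of THBS1 is 232186 bp longer than its gene. Of the 24 targets 20 were below 0, against 5998 of all 11597 genes, with a median of -0.50. The 4 above 0 were ACTA2, TAGLN, TGFB1I1 and CYR61. ACTA2 and TAGLN are also on the smooth muscle marker list, where 9 of 9 were above 0. The part of these markers was not tested.

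**Figure D5:**
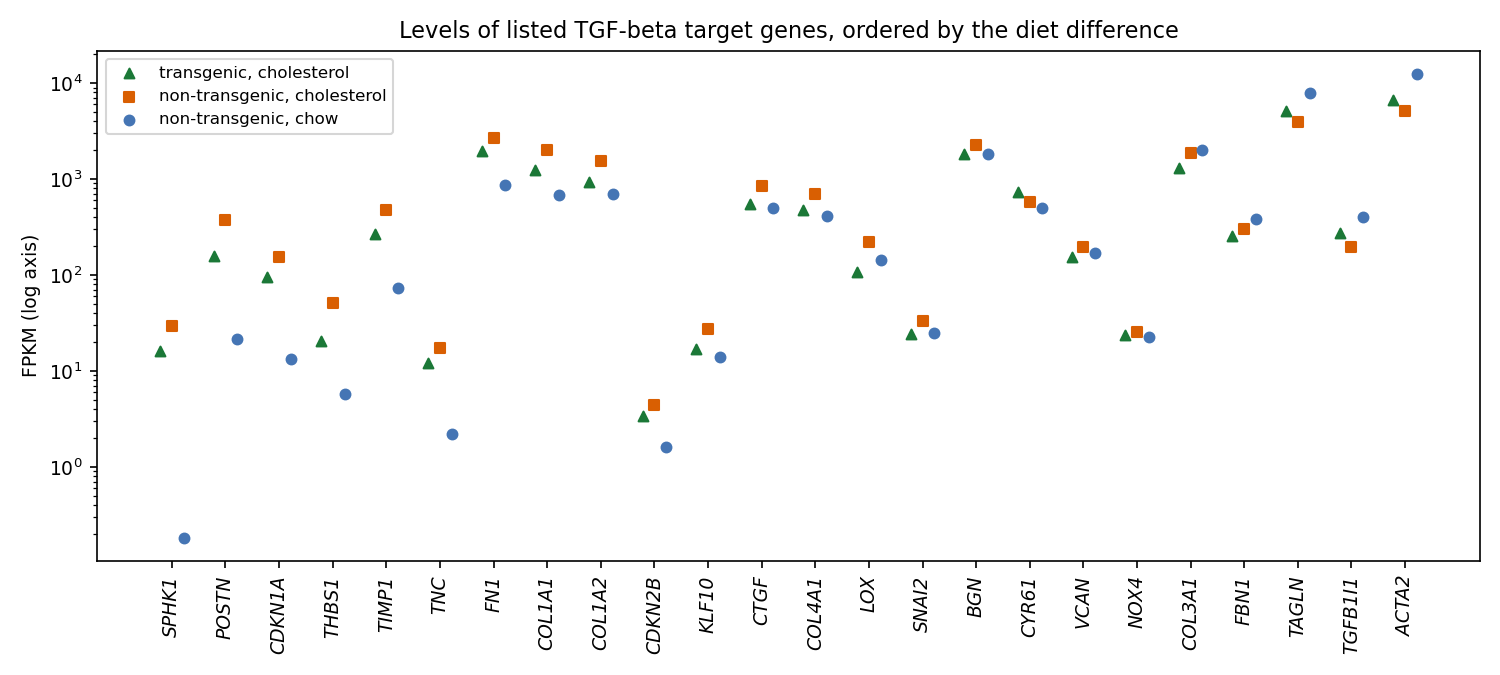
FPKM on a log axis for the 24 listed TGF-beta target genes over the filter, ordered from the highest to the lowest diet difference, with the transgenic cholesterol (triangles), non-transgenic cholesterol (squares) and chow (circles) libraries. POSTN is at 156, 371 and 21.4 FPKM, and ACTA2 at the far right at 6594, 5161 and 12462 FPKM.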

How the data were processed

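Per the labels, RNA of aortic media was enriched with oligo(dT) beads and sequenced as 3 pooled libraries, grouped here by title. The values are FPKM made by the authors, per the file headers. The submitters' processing notes name OryCun2.0 as build. Aligner, quantifier and between-library scaling: not given in the sources used here. Coordinates are those of the table's reference column.

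Differences are log2(FPKM + 1), for the 11597 rabbit genes whose mean reached 1 FPKM, and calls start at 2-fold. The pseudocount makes differences of low genes smaller than their ratios. The calculation was tested on simulated data. With 1 library a group there is no test. Relative depth was taken from genes under 0.15 FPKM, where 72.0% (transgenic) and 71.8% (non-transgenic cholesterol) of the ratios to chow lay within 1% of a ratio of whole numbers up to 3. Steps depend on gene length, so no counts were recovered and no counting interval could be made.

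Members and gene lists were chosen with earlier results of these data known. Members at least 2-fold different, and the most abundant of each role, are given per library; of other lists, at most 8 genes by size of difference, and genes that a sentence compares, chosen after their values were seen. For 5 members (TGFB3, BMP6, TGFBI, BMPR1A and ENG) the deposited position is longer than the annotated gene, and all but TGFBI overlap another row. Among the targets it is longer for THBS1, TIMP1, TAGLN and COL1A1. A listed target gene is not reported here. The 2 further sheets of the table were not used here. The figures and tables were made with Python 3.11.15, numpy 2.4.6, pandas 2.3.3 and matplotlib 3.10.9.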

Additional observations from a re-analysis of the deposited data

How the results depend on the processing

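Of the 10 members at least 2-fold different on the diet, 7 stayed so under both other pseudocounts and all 4 other scalings. At a pseudocount of 5 FPKM 2 members were lower (BMPR1B and ACVR2A dropped out), as were 4 of the further pathway genes. Of those further genes, 2 were then higher on the diet and 1 in the transgenic library. A pseudocount of 0.1 gave 4 of them higher in the transgenic library, and a mean of at least 5 FPKM left 2 higher on the diet. Rescaling to the same FPKM sum moved the genotype median of all genes to 0.11 and that of the members to 0.095, and left 1 target lower on the diet. Without mitochondrial DNA genes, that rescaling moved the diet median of all genes to 0.19 and that of the members to 0.0011, with 5 further pathway genes and 1 target lower. Relative to all genes the members' diet median stayed between -0.20 and -0.16. Leaving out genes whose deposited position is longer than the gene, chosen after seeing the data, left 3 members higher on the diet (TGFB1, BMP1 and ACVRL1). Of the 20 targets then left, 7 were higher on the diet and 2 lower in the transgenic library, against 16.0% and 2.03% of all genes. Other counts stayed within 1.5 times, and no member reached 2-fold by genotype under any setting. No paired analysis was possible because each group has 1 library.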

Other observations

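The ligands that bind ACVRL1 and ENG with highest affinity had almost no transcript in the wall. GDF2 stood at 0.050, 0.016 and 0 FPKM and BMP10 at 0.049, 0.079 and 0 FPKM in the transgenic, non-transgenic cholesterol and chow libraries, while ENG stood at 70.8, 80.8 and 16.0 FPKM. In other mammals these ligands are made mainly by liver and heart and circulate in blood. The antagonist TWSG1 and the ligands GDF10 and GDF11 were lower on the diet, with differences of -1.17, -1.11 and -1.02, and the ubiquitin ligases SMURF1 and SMURF2, which degrade receptors and SMADs, differed by -0.41 and -0.25. GDF6, a BMP ligand below the filter, stood at 0.63, 1.72 and 0.30 FPKM in the same libraries.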
